A study of Rattus norvegicus with 6 samples.

Results

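The enzymes that remove superoxide and hydrogen peroxide directly were followed in the rat renal cortex. They are 3 superoxide dismutases (Sod1, Sod2, Sod3), catalase (Cat) and 6 peroxiredoxins (Prdx1 to Prdx6). Members were chosen by name, as every non-control probe whose transcript accession belongs to one of these genes. This gave 13 of 61537 probes and 10 of the 15639 genes that could be named. All 10 genes lay well above background on all 6 arrays and were tested. Sod1 had 3 probes, Sod2 had 2 and the other 8 genes had 1 each.

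Tested animals were 3 male Sprague-Dawley (Crl:CD(SD)) rats dosed for 4 weeks with TBBC at 300 mg/kg/day. TBBC is the 4,4' form of thiobis(6-tert-butyl-m-cresol), a phenol antioxidant whose rings are joined by sulfur. The controls were 3 male rats of the same strain given corn oil, the vehicle, for 4 weeks. All 6 were bought at 5 weeks of age and kept on the same basal diet. RNA of each cortex was labelled with Cy3 and hybridised to 1 Agilent array. Levels below are log2 of the processed signal relative to the array's 75th percentile, so 0 is the brightness of the probe at that percentile. A level can be compared between rats for 1 probe, not between probes.

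Superoxide dismutases turn superoxide into hydrogen peroxide and oxygen, and catalase and the peroxiredoxins break the peroxide down. Each enzyme has its place: Sod1 in the cytosol, Sod2 and Prdx3 in the mitochondrial matrix, Sod3 outside the cell, Cat in peroxisomes, Prdx1, Prdx2 and Prdx6 mainly in the cytosol, Prdx4 in the endoplasmic reticulum, and Prdx5 in mitochondria, peroxisomes and the cytosol. Most peroxiredoxins are reduced again by thioredoxin and thioredoxin reductase, and sulfiredoxin repairs them when they are over-oxidised. Proximal tubule cells are rich in mitochondria and peroxisomes. Prdx1, Srxn1 and Txnrd1 are textbook targets of the transcription factor Nrf2, which binds antioxidant response elements.

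The stretches of promoter that hold the core letters of that element are shown because they set Prdx1 beside Srxn1 and Txnrd1, enzymes that recycle it. RefSeq (assembly GRCr8) gave promoters, from 250 bases before to 50 bases after the start site, for 8 of the 10 genes. Sod3 and Prdx6 were not matched. The core was searched on both strands as TGACNNNGC, TGAGNNNGC or TGATNNNGC, the TGAG and TGAT spellings having been added after the Srxn1 promoter was seen. It was found in 4 of the 8 promoters (Sod2, Prdx1, Prdx4 and Prdx5), and 32.7% of all 33469 promoters of this length hold it. All 4 matches were to TGACNNNGC, which 12.1% of promoters hold. Capitals mark the match, which in the genes below reads as the core on the opposite strand except in the second Srxn1 window. For comparison, 2 of the 3 matches of Srxn1 (sulfiredoxin) and the match in 1 of the 2 listed promoters of Txnrd1 (cytosolic thioredoxin reductase) are given.
Prdx1, chr5:135383759-135383791, + strand: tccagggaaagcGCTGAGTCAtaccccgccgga
Sod2, chr1:50050183-50050215, - strand: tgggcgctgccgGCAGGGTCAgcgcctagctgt
Prdx5, chr1:213532008-213532040, - strand: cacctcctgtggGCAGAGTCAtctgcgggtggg
Prdx4, chrX:43878740-43878772, + strand: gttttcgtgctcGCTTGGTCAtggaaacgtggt
Srxn1, chr3:161064682-161064714, + strand: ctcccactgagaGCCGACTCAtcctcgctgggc
Srxn1, chr3:161064795-161064827, + strand: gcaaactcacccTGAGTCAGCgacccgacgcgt
Txnrd1, chr7:22755962-22755994, - strand: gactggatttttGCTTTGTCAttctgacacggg
The matches began 135 bases before the start site in Prdx1, 35 in Sod2 and 1 in Prdx5, and 19 bases after it in Prdx4. In Srxn1 those shown began 118 and 5 bases before it, and in Txnrd1 78 bases before it. A match describes the letters and is not evidence of a bound site.

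The whole Prdx1 promoter, chr5:135383656-135383955 (+ strand, GRCr8), is printed because Prdx1 is the member best known as an Nrf2 target. The core is in capitals.
Prdx1 promoter: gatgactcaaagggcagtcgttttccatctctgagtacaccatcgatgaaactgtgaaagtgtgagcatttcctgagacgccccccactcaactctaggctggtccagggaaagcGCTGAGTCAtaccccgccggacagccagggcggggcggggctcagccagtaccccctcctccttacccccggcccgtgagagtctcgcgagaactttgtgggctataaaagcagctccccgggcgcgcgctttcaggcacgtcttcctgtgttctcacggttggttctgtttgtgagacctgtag
It also holds TATAAA, the TATA box letters, and GGGCGG, the letters of a GC box, at 2 overlapping places. TATAAA was found in 2 of the 8 promoters (Prdx1 and Sod1) and in 14.2% of all promoters. GGGCGG was found in 7 of the 8, the exception being Cat, and in 33.1% of all promoters.

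None of the 10 genes passed the threshold of an adjusted p under 0.05 in TBBC-treated cortex (limma, Benjamini-Hochberg over 32962 transcripts), while 0.531% of all transcripts passed. At an unadjusted p under 0.05 the count was also 0 of 10, against 20% of all transcripts. The log2 fold changes, TBBC over vehicle, ran from -0.18 (Prdx5) to 0.28 (Prdx1), with a median of -0.09, where the median of all transcripts was -0.02. For 7 genes the value was below 0 and for 3 above. A p that misses the threshold does not show equal levels, so the 95% intervals matter. The intervals of all 10 genes lay inside a 2-fold change in either direction, and those of 8 lay inside 1.5-fold, the exceptions being Prdx1 and Prdx6.

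**Figure D1:**
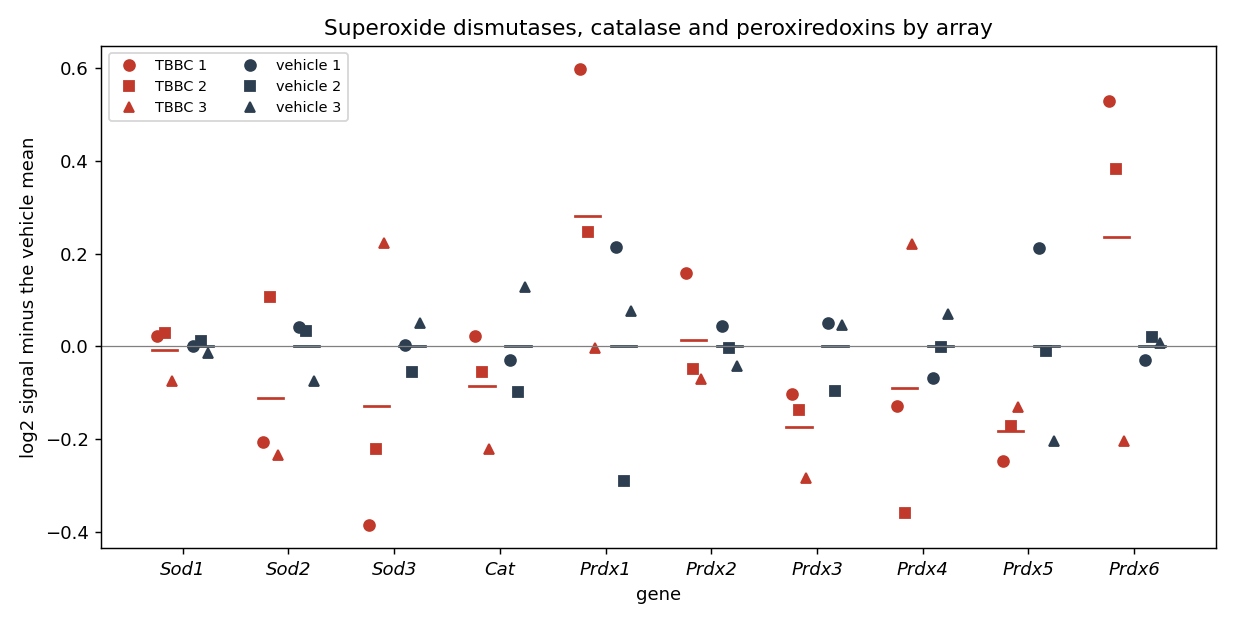
Log2 signal of each gene on each array minus the mean of the 3 vehicle arrays (vertical axis), by gene (horizontal axis), with TBBC arrays in red left of vehicle arrays in dark blue, symbols for replicate number and short lines for group means. Only the Prdx3 points of the 2 groups are apart, and the TBBC points spread more widely than the vehicle points for 9 of 10 genes.

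Sod1, the copper-zinc dismutase of the cytosol, stood at 8.04, 8.05 and 7.95 in TBBC 1 to 3, against 8.02, 8.03 and 8.01 in vehicle 1 to 3. The groups overlapped, and TBBC 3 was the lowest of the 6 arrays. The fold was 0.99 (95% interval 0.85 to 1.17, adjusted p = 0.976 in limma), the narrowest interval of the 10 genes. Its other 2 probes gave log2 fold changes of -0.06 ± 0.11 and -0.03 ± 0.10 (SE). No spot on any array was saturated.

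Prdx1, the most inducible cytosolic peroxiredoxin by textbook knowledge, stood at 5.94, 5.59 and 5.34 in TBBC 1 to 3, against 5.55, 5.05 and 5.42 in vehicle 1 to 3. TBBC 1 and TBBC 2 lay above every vehicle rat and TBBC 3 lay inside their range. The fold was 1.21 (95% interval 0.86 to 1.71, adjusted p = 0.496 in limma). The vehicle rats themselves spread by 0.26 (SD, n = 3), the largest vehicle spread of the 10 genes.

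Prdx2, an abundant peroxiredoxin of the cytosol and of red cells, stood at 5.35, 5.15 and 5.12 in TBBC 1 to 3, against 5.24, 5.19 and 5.15 in vehicle 1 to 3. TBBC 1 was above the vehicle range and the other two were just below it. The fold was 1.01 (95% interval 0.84 to 1.21, adjusted p = 0.962 in limma).

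Prdx6, which reduces phospholipid hydroperoxides and is recycled by glutathione and a glutathione transferase in place of thioredoxin, stood at 4.54, 4.39 and 3.80 in TBBC 1 to 3, against 3.98, 4.03 and 4.02 in vehicle 1 to 3. TBBC 1 and TBBC 2 were above all vehicle rats and TBBC 3 was below all of them. The spread was 0.39 in TBBC against 0.03 in vehicle (SD, n = 3 each), the largest TBBC spread of the 10 genes. The fold was 1.18 (95% interval 0.84 to 1.65, adjusted p = 0.559 in limma).

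Of the mitochondrial enzymes, Sod2, the manganese dismutase, stood at 2.74, 3.05 and 2.71 in TBBC 1 to 3, against 2.99, 2.98 and 2.87 in vehicle 1 to 3. TBBC 2 was the highest array of all and TBBC 1 and TBBC 3 were the lowest. The fold was 0.93 (95% interval 0.75 to 1.15, adjusted p = 0.678 in limma), and the dimmer probe of Sod2 gave a log2 fold change of -0.04 ± 0.15 (SE).

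Prdx3, which takes up most hydrogen peroxide of the mitochondrial matrix, stood at 4.16, 4.12 and 3.98 in TBBC 1 to 3, against 4.31, 4.16 and 4.31 in vehicle 1 to 3. Every TBBC rat was below every vehicle rat, by the least margin between TBBC 1 and vehicle 2. Prdx3 was the 1 gene of 10 whose groups did not overlap. Across all transcripts 28.3% did not overlap and 15.2% had TBBC wholly below vehicle, so this is no more than the background share. The fold was 0.89 (95% interval 0.74 to 1.06, adjusted p = 0.419 in limma), and 36.8% of transcripts had a p as small or smaller.

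Prdx5 stood at 5.96, 6.04 and 6.08 in TBBC 1 to 3, against 6.42, 6.20 and 6.01 in vehicle 1 to 3. The TBBC rats lay close together, with an SD of 0.06, within or just below the vehicle range, whose SD was 0.21 (n = 3 each). It was the 1 gene with less spread in TBBC. The fold was 0.88 (95% interval 0.703 to 1.104, adjusted p = 0.498 in limma). All 3 mitochondrial genes had values below 0, from -0.18 to -0.11 in log2 fold change, and none of them passed the test.

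Cat, the peroxisomal catalase, stood at 3.04, 2.97 and 2.80 in TBBC 1 to 3, against 2.99, 2.92 and 3.15 in vehicle 1 to 3. TBBC 1 and TBBC 2 lay within the vehicle range and TBBC 3 below it. The fold was 0.94 (95% interval 0.77 to 1.15, adjusted p = 0.741 in limma).

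Prdx4, which uses hydrogen peroxide of the endoplasmic reticulum to oxidise protein disulfide isomerases, stood at 0.30, 0.07 and 0.65 in TBBC 1 to 3, against 0.36, 0.43 and 0.50 in vehicle 1 to 3. TBBC 1 and TBBC 2 were below all vehicle rats and TBBC 3 was above them. The fold was 0.94 (95% interval 0.71 to 1.24, adjusted p = 0.808 in limma).

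Sod3, the secreted dismutase that binds the extracellular matrix, stood at 5.92, 6.09 and 6.53 in TBBC 1 to 3, against 6.31, 6.25 and 6.36 in vehicle 1 to 3. As with Prdx4, TBBC 1 and TBBC 2 were below all vehicle rats and TBBC 3 was above them. The fold was 0.91 (95% interval 0.69 to 1.22, adjusted p = 0.728 in limma).

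**Figure D2:**
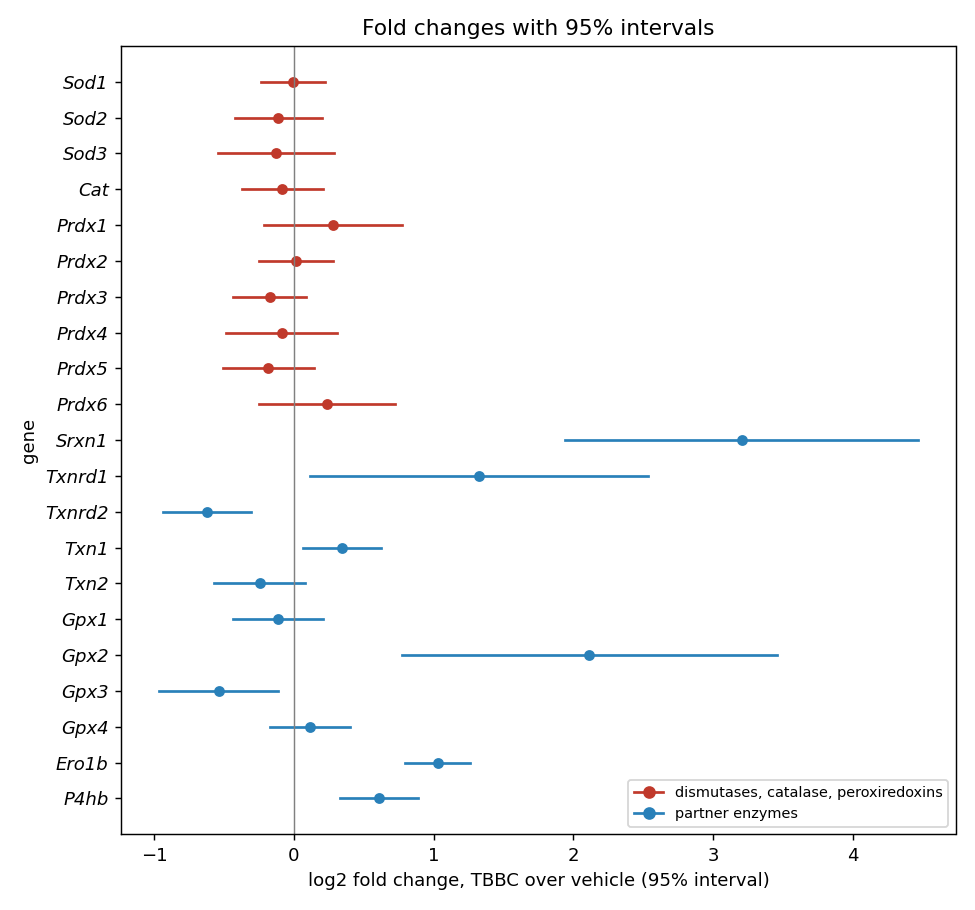
Log2 fold change of TBBC over vehicle (horizontal axis; points) with its 95% interval from limma (lines), for the 10 genes in red and 11 partner enzymes in blue (n = 3 rats per group). The red intervals all include 0 and stay inside 2-fold, while the point of Srxn1 is at 3.20 and its interval runs from 1.94 to 4.46.

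The 3 TBBC rats differed from each other. TBBC 3 was the lowest TBBC rat for 7 of the 10 genes (Sod1, Sod2, Cat, Prdx1, Prdx2, Prdx3 and Prdx6) and the highest for the other 3 (Sod3, Prdx4 and Prdx5). Over named genes TBBC 3 was lowest in 35.6% and highest in 33.5%. In TBBC 1, the cytosolic genes (Sod1, Prdx1, Prdx2, Prdx6) had a median of 0.34 above their vehicle means, the value being 0.14 in TBBC 2 and -0.07 in TBBC 3. The mitochondrial genes (Sod2, Prdx3, Prdx5) had medians of -0.21, -0.14 and -0.23 in the same rats. The spread was larger in TBBC than in vehicle for 9 of 10 genes, against 74.3% of all transcripts.

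Markers of other cell types also differed in TBBC 3. In whole cortex, fewer cells of a type and less RNA per cell cannot be told apart. Each sum below weighs the brightest probes of its list most. The summed signal of 10 of 11 macrophage markers was 87.4, 100.7 and 199.9 times the 75th percentile in TBBC 1 to 3. In vehicle it was 94.1 to 117.7. Lyz2, the brightest of these, stood at 5.82, 6.02 and 7.06 in TBBC 1 to 3, against 6.07 to 6.34 in vehicle. The sum of 10 of 12 red cell markers was 829.7, 937 and 498.4 in TBBC 1 to 3, against 817.5 to 888.6 in vehicle. Its brightest probe, Hba-a1, stood at 8.56, 8.77 and 7.84 in TBBC 1 to 3, against 8.55 to 8.67 in vehicle. Slc4a1 was the 1 marker of this list with TBBC wholly below vehicle (2.64, 1.93 and 1.23 against 2.75 to 3.22). The groups overlapped for the other 9, and 15.2% of all transcripts had TBBC wholly below vehicle. The sum of 7 of 9 lymphocyte markers was 1.41, 1.37 and 2.93 in TBBC 1 to 3, against 1.47 to 1.88 in vehicle. Sums of 3 other lists lay wholly below vehicle in TBBC. That of 5 of 5 thick ascending limb markers was 137 to 340 in TBBC and 383 to 438 in vehicle. That of 5 of 5 principal cell markers was 114 to 144 in TBBC and 148 to 194 in vehicle. Singly, 3 principal cell markers had log2 fold changes below 0 and 2 above. Of these 5, 1 had TBBC wholly below vehicle, against 15.2% of all transcripts. The sum of 6 of 7 endothelial markers was 25.3 to 27.9 in TBBC and 30.6 to 35.2 in vehicle. No marker in any list passed the test, and the part of these cells in the values of the 10 genes was not tested. Markers of the proximal tubule, the main cell of the cortex, were all detected, with sums of 1802 to 2259 in TBBC and 2192 to 2439.55 in vehicle. These ranges overlapped. Of the 10 markers, 9 had log2 fold changes below 0, as did 6795 of 12292 named genes. TBBC lay wholly below vehicle for 2 of the markers, against 15.2% of all transcripts. The 2 were Hnf4a, a transcription factor of the proximal tubule, at -0.57 ± 0.11, and Lrp2, its endocytic receptor megalin, at -0.37 ± 0.10 (SE), both named after their values were seen.

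TBBC 2 and TBBC 3 were hybridised on slide 2 and TBBC 1 with the vehicle rats on slide 1, which were also read in separate scans. Within slide 1, TBBC 1 alone stands against 3 vehicle rats, so these are values of 1 rat, given as effect sizes only. They differed by over 1.5 times from the values on all arrays, or in sign, for 8 of the 10 genes, the exceptions being Prdx4 and Prdx5. The log2 fold change within slide 1 was 0.60 for Prdx1, 0.53 for Prdx6 and 0.16 for Prdx2. It was -0.39 for Sod3, -0.21 for Sod2 and -0.10 for Prdx3, and 0.02 for both Sod1 and Cat. Without TBBC 1, Prdx1 was at 0.12 and Prdx6 at 0.09, and without TBBC 3 they were at 0.42 and 0.46. Slide and rat cannot be told apart for TBBC 2 and TBBC 3.

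Partner genes were read from 7 lists written for this work. Of 89 partner genes tested, 1 rose and 0 fell past the threshold, where 0.531% of all transcripts passed. The median log2 fold change was 0.03. At an unadjusted p under 0.05 in limma, 14 of the 89 were higher and 16 lower. Of all transcripts 9.54% were higher and 10.4% lower. The lists were chosen with earlier results of these data known, so these counts are not independent of that choice.

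Of the thioredoxin and sulfiredoxin list, only some of whose genes recycle peroxiredoxins, none of the 11 tested passed and the median log2 fold change was 0.21. Srxn1, which repairs over-oxidised peroxiredoxins, stood at 4.42, 5.17 and 3.05 in TBBC 1 to 3, against 0.73, 1.00 and 1.30 in vehicle 1 to 3. The groups were far apart, by a fold of 9.21 (95% interval 3.85 to 22.1), with an adjusted p of 0.0641 in limma, and it passed without TBBC 3 (0.0212). Txnrd2, the mitochondrial thioredoxin reductase that serves Prdx3, stood at 1.19, 1.24 and 1.39 in TBBC 1 to 3, against 1.98, 1.70 and 2.00 in vehicle 1 to 3 (log2 fold change -0.62 ± 0.13, SE, adjusted p = 0.0888 in limma). Their cytosolic and mitochondrial counterparts were named for their roles after values were seen. In the cytosol, Txnrd1 was at 1.33 ± 0.50 and its substrate Txn1 at 0.34 ± 0.12, with TBBC wholly above vehicle. In mitochondria Txn2 was at -0.25 ± 0.14, with TBBC wholly below vehicle. Txnrd1 was at 0.765 without TBBC 2. Txn2 was at -0.13 without TBBC 3 and at -0.05 within slide 1. None of these 3 passed.

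Glutathione peroxidases, which remove peroxides with glutathione, had 0 of 7 past the threshold and a median of -0.11. Gpx2, the gut-type enzyme, stood at 5.76, 7.02 and 6.09 in TBBC 1 to 3, against 3.38, 5.29 and 3.86 in vehicle 1 to 3. Every TBBC rat was above every vehicle rat, by a fold of 4.33 (95% interval 1.71 to 10.98, adjusted p = 0.126 in limma), and vehicle 2 stood above the other vehicle rats. Gpx6 was at -0.71 ± 0.20 in log2 fold change. For their roles, chosen after values were seen, the cytosolic Gpx1 was at -0.11 ± 0.13, the secreted Gpx3 at -0.54 ± 0.18 and the phospholipid hydroperoxide peroxidase Gpx4 at 0.11 ± 0.12.

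**Figure D3:**
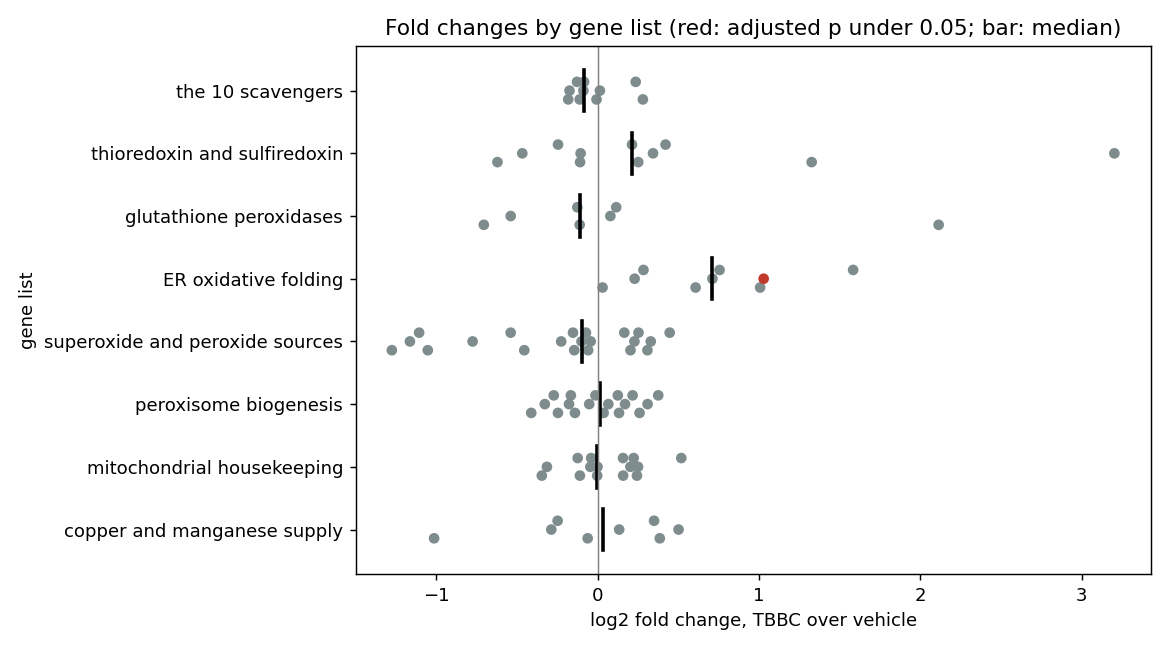
Log2 fold change of TBBC over vehicle (horizontal axis) for each gene tested (points) in the 10 scavengers and 7 partner lists (vertical axis), with the list median as a black bar and genes past the threshold in red. The scavengers stay between -0.18 and 0.28, and Ero1b is the red point.

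Around Prdx4 in the endoplasmic reticulum, 1 of 9 oxidative folding genes passed the threshold, as a rise, and the list median was 0.71. All 9 had log2 fold changes above 0, and 6 had TBBC wholly above vehicle, against 13.1% of all transcripts. At an unadjusted p under 0.05 in limma 6 were higher, against 9.54% of all transcripts. This list too was chosen with earlier results known, so its counts only describe it. Ero1b, an oxidase that makes hydrogen peroxide while forming disulfides, stood at -2.27, -2.29 and -2.28 in TBBC 1 to 3, against -3.30, -3.39 and -3.25 in vehicle 1 to 3. The groups were apart and the TBBC rats nearly equal. It rose 2.04-fold (adjusted p = 0.0208 in limma), a call lost without TBBC 2 (adjusted p = 0.0605), without any 1 vehicle rat (0.120 to 0.159), with slide as a fixed term (0.118) and with dim probes kept (0.0505), while its log2 fold change stayed between 0.99 and 1.06 in these. P4hb, a protein disulfide isomerase that Prdx4 oxidises, was at 0.61 ± 0.12 and did not pass.

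Of 21 superoxide and peroxide sources tested, 0 passed, with a median of -0.10. The peroxisomal oxidases Pipox (sarcosine and pipecolate) and Hao2 (long-chain hydroxy acids), whose peroxide Cat removes, were at -1.28 ± 0.23 and -1.16 ± 0.23, with TBBC wholly below vehicle and no pass in limma (adjusted p = 0.0742 and 0.0842). Within slide 1 Hao2 was at -0.68. Peroxisome biogenesis genes had 0 of 18 past the threshold and a median of 0.01. Among them the fatty acid importer Abcd3 was at -0.41 ± 0.11 and Pex26, which anchors the import motor, at 0.38 ± 0.11. In mitochondrial housekeeping 0 of 15 passed, with a median near 0.00, the channel Vdac1 at -0.35 ± 0.11 and the chaperone Hspa9 at 0.52 ± 0.18, or 0.83 within slide 1. For copper and manganese supply 0 of 8 passed, with a median of 0.04. There the metal importer Slc39a8, which carries manganese, was at -1.01 ± 0.24, or -0.53 within slide 1, and the copper chaperone Atox1 at -0.29 ± 0.10.

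Prdx3 had the smallest p of the 10 genes. The 3 named genes whose pattern over the 6 arrays was most like it were Mex3b, Cdk9 and Aak1, with root mean square differences of 0.02, 0.03 and 0.03 in log2 values centred on each gene's vehicle mean. Their log2 fold changes were -0.15, -0.16 and -0.14, and none of them passed.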

How the data were processed

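The authors deposited, per the file headers, 1-colour spot intensity values from Agilent Feature Extraction 10.7.1.1 (10.7 per the submitters' processing notes), background-subtracted within each array. The value table deposited by the authors holds a linear ratio of processed signal to a divisor, which was 1.001 to 1.002 times the 75th percentile found here; column medians were 0.107 to 0.114. Scale and direction were read from the scanner files, and no step between arrays beyond this was found.

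Control spots were left out, and accessions without versions were matched to RefSeq names (28193 of 61537 probes, GRCr8), since the files hold no symbols. Each array's processed signals were scaled to their own 75th percentile and put on the log2 scale. Outlier-flagged spots (0 to 9 per array) were left out. A probe was tested if well above background on all arrays of at least 1 group, and a gene is its brightest tested probe. On each array 67.1% to 70.9% of probes were well above background. The number of arrays limits the precision. Groups were compared with limma 3.58.1 (lmFit, eBayes, two-sided, R 4.3.3), Benjamini-Hochberg adjusted over 32962 transcripts at 0.05, and the procedure was tested on simulated data. Probe sequences were not used here, so signal from near-identical copies cannot be told apart. The design text calls the replicates biological.

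The genes and lists were chosen with earlier results of these data known. Named are all 10 genes and, in each partner list, those past the threshold and the 2 with the smallest p. Also named are the 3 genes closest to the member of smallest p, and 6 genes for their roles. Cell type markers given by name were picked after their values were seen. Alternatives covered scaling, background, filter, probe choice, spread, weights, slide, replicate number and single arrays.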

Additional observations from a re-analysis of the deposited data

How the results depend on the processing

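No member of the 10 passed under any of the 20 alternatives, the lowest adjusted p being 0.101 (Prdx6 without TBBC 3). Of 200 member values, 188 kept their direction, but not every alternative could change it. Member fold changes cannot move with eBayes trend and robust or with the replicate block. They also stayed the same with either other filter on dim probes. The slide term and the fit within slide 1 gave the same fold changes as each other. With the median as scale Sod1 was at 0.0010, Sod1 was at 0.024 and Cat at 0.022 both within slide 1 and with a slide term, and with quantile and normexp values Prdx2 was at -0.024 and -0.024. With 1 array left out, Sod1 ran from -0.0253 to 0.0261, Sod3 from -0.303 to 0.000567, Prdx2 from -0.0587 to 0.0551 and Prdx4 from -0.243 to 0.0462. Without a change of sign, Prdx1 ran from 0.121 to 0.422, Prdx6 from 0.0893 to 0.456, Prdx3 from -0.222 to -0.120, Prdx5 from -0.285 to -0.0765, Sod2 from -0.22 to -0.05 and Cat from -0.138 to -0.0167. Prdx6 stood above Prdx1 without vehicle 2, without TBBC 3 and with quantile values. Gpx4 was at -0.021 with quantile values and ran from 0.0561 to 0.203 with 1 array left out, and Gpx1 from -0.232 to -0.0414; within slide 1 they were at 0.173 and -0.213. The 1 partner gene past the threshold became 5 with normexp, 7 with eBayes trend and robust and 2 with array weights. Of all 32962 transcripts 761, 1087 and 200 passed in these settings, against 175 in the main fit. The partner count was 0 with no filter on dim probes, 0 with slide as a fixed term and 0 to 2 with 1 array left out. Of all transcripts 52 of 48983 passed with no filter and 48 of 32962 with the slide term. With 1 array left out 6 to 274 passed. Leaving aside the fit within slide 1, Srxn1 passed with normexp, with eBayes trend and robust, with array weights and without TBBC 3. Its adjusted p-values in limma ran from 0.0212 to 0.243. Replicate numbers do not pair the rats (correlations of deviations -0.09, 0.03 and -0.07). With the replicate block, 0 partner genes, 0 members and 0 of all transcripts passed, the last against 175, and Ero1b had an adjusted p of 0.124 at the same fold change. Within slide 1 the lone TBBC rat is assumed to vary like the vehicle rats. The causes were not tested. Scalings moved the median of all transcripts by less than 0.1.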
